A study of Rattus norvegicus with 9 samples.

Results

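The lipoxygenase, cyclooxygenase and eicosanoid genes described here are 10 genes chosen by symbol, Alox5, Alox5ap, Lta4h, Ltc4s, Alox15, Ptgs1, Ptgs2, Ptges, Hpgds and Ephx2, out of 32883 genes counted in liver RNA of 9 male Sprague-Dawley rats. All 10 were found in the table, each under 1 Ensembl identifier, and all are annotated there as protein-coding. The 3 normal control rats (N1, N12 and N3) ate a normal diet. The 3 DEN model rats (M13, M17 and M24) belonged to a protocol of weekly intraperitoneal diethylnitrosamine (DEN, a liver carcinogen) at 0.01% over 16 weeks. The 3 PZH administration rats (G27, G28 and G42) received DEN in the same way together with Pien-Tze-Huang (PZH), a traditional Chinese formula. The study gave PZH at a low and a high dose and collected rats at several weeks of the protocol. The PZH dose and the week of collection of the sequenced rats are not given in the sources used here. Either may therefore differ within or between the groups. The groups follow the letter in each rat's name, read with the study's methods. The treatment tag of the M rats reads PZH as it does for the G rats, so the M rats are DEN model rats by name and not by tag. Each library came from the liver of 1 rat, and p-values measure the spread between these rats.

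Arachidonic acid, a fatty acid released from membranes by phospholipases, is turned into signalling lipids along several branches. The 5-lipoxygenase Alox5, presented with its substrate by Alox5ap, makes leukotriene A4, which Lta4h hydrolyses to leukotriene B4, an attractant of neutrophils, and which Ltc4s joins to glutathione as leukotriene C4. Alox15 makes hydroperoxides of fatty acids, also within membrane lipids. The cyclooxygenases Ptgs1, held to be constitutive, and Ptgs2, held to be inducible, make prostaglandin H2, from which Ptges forms prostaglandin E2 and Hpgds prostaglandin D2. Ephx2, the soluble epoxide hydrolase, breaks down the epoxides that liver cytochrome P450 enzymes make from the same fatty acid. Leukocytes, macrophages and mast cells are well-known sources of the lipoxygenase and prostaglandin D2 enzymes, whereas Ephx2 and the P450 epoxygenases are abundant in hepatocytes.

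The start regions of Alox5, Ptgs2 and Ptgs1 are shown because both cyclooxygenases and the first leukotriene enzyme are set side by side in what follows. The 250 bases before each RefSeq start in build GRCr8 are written 5′ to 3′ on the gene's strand, with motif matches in capitals. RefSeq promoter entries were matched by symbol for 6 of the 10 genes.
Alox5, chr4:151251127-151251376, minus strand: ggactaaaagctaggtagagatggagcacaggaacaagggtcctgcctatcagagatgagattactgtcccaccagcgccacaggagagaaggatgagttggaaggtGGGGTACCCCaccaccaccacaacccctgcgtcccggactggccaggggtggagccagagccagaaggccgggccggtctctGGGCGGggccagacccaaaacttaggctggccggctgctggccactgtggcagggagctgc
Ptgs2, chr13:64713813-64714062, plus strand: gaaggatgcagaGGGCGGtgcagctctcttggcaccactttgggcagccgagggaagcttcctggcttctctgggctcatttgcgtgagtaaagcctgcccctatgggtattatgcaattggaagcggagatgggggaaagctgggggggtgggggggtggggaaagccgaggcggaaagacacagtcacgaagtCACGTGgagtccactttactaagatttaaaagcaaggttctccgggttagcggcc
Ptgs1, chr3:39981169-39981418, plus strand: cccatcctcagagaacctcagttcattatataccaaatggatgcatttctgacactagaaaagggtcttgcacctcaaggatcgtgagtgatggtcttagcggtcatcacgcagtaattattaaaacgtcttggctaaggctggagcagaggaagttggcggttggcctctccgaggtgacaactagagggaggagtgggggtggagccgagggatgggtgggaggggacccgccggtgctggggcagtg
The motifs searched on both strands were a TATA box (TATAAA), a GC box (GGGCGG), an E-box (CACGTG), a cAMP response element (TGACGTCA), an AP-1 site (TGANTCA), a STAT6 site (TTC and GAA with NNNN between them) and an NF-kB site. The capitals mark 1 NF-kB match and 1 GC box in Alox5, in that order, and 1 GC box and 1 E-box in Ptgs2. None of these letters occurred in the Ptgs1 window. Among 33469 rat promoters of the same length, 30.5% held a GC box, 5.59% an E-box and 6.33% an NF-kB match, and the motifs did not overlap each other in the windows shown. The matches describe letters, and no binding was measured.

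Libraries held between 14922973 and 27161496 counted reads, the largest being G27. Levels are given in CPM, reads scaled to a common library size with TMM factors, and 3 reads corresponded to between 0.125 and 0.252 CPM depending on the rat, a limit that covers counting error only. TMM factors were 0.731 to 0.799 in normal control, 1.21 to 1.58 in DEN model and 0.863 to 0.941 in PZH administration rats. Each pair of groups was fitted on its own 6 rats by the quasi-likelihood method of edgeR. The words rose or fell are written where the p after Benjamini-Hochberg adjustment over all tested genes was under 0.05. After PZH means in PZH administration rats, set against DEN model rats unless normal control is named. The groups are different rats, so no change over time was followed. With library totals in place of TMM the middle value of the fold changes over all genes moved, in log2 units, by 0.87 between DEN model and normal control, by -0.67 between PZH administration and DEN model and by 0.23 between PZH administration and normal control. Of all genes called, the share that was higher then went from 55.3% to 89.5%, from 45.7% to 8.89% and from 78.0% to 89.99%, so changes are relative to the TMM scaling. The liver label was checked with 6 hepatocyte markers (Alb, Apoa1, Ttr, Cps1, Tf and Fgb), which were present in every library and summed to 143024 to 160145 CPM in normal control, 30981 to 69646 CPM in DEN model and 121545 to 160164 CPM in PZH administration rats. In such bulk tissue, fewer cells of a type and less RNA per cell cannot be told apart.

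In DEN model livers, Ptgs2, Alox15, Alox5 and Alox5ap rose against normal control livers and Ltc4s fell, with log2 fold changes of 5.35, 5.44, 3.21, 1.89 and -4.15. Lta4h, Ptgs1, Hpgds and Ephx2 did not pass the test, and Ptges was too low to be tested. Of the 9 tested genes 4 were thus higher, where 25.3% of all 14255 tested genes were, and 1 was lower, where 20.5% were. These 5 of 9 (55.6%, against 45.8% of all genes) are a share near the background, so the count itself is not a result about these genes. Over the 9 genes the median of the log2 fold changes was 0.45, beside 0.03 over all tested genes. At an unadjusted p under 0.05 in edgeR the same count of 4 higher and 1 lower was found, where 29.0% and 24.5% of all tested genes were. At the study's thresholds, read here as more than 2 log2 units in either direction with an unadjusted P under 0.001 since neither the log base nor an adjustment is stated, Ptgs2 was higher and Ltc4s lower, where 8.81% and 3.49% of all genes passed. In these 5 genes the groups did not overlap, as in 58.8% of all genes tested, 31.4% with DEN model rats higher and 27.4% with them lower.

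In PZH administration livers, Alox15 and Alox5ap fell against DEN model livers, with log2 fold changes of -6.88 and -1.03. None of the other 7 tested genes passed, and 0 of the 9 rose by edgeR's test, where 8.72% of all genes did. At an unadjusted p under 0.05 in edgeR, 5 of the 9 were lower and 0 higher, where 18.3% and 16.6% of all tested genes were, and DESeq2 also called 0 higher at an adjusted p under 0.05. The 2 of 9 (22.2%) stand beside 19.1% of all 14272 tested genes called in either direction. Both were lower, as were 10.3% of all tested genes, and so small a count is not read as a result about these genes. Alox15 was the 1 gene of the 9 past the study's thresholds, which 2.43% of all genes met, 1.08% higher and 1.35% lower. The median log2 fold change was -0.80 over the 9, beside 0.01 over all tested genes, and 6 of the 9 had groups that did not overlap, all lower, where 40.8% of all genes had such groups and 22.5% were lower. Against normal control, 1 of the 9 was higher in PZH administration livers, Ptgs2 (log2 fold change 4.39), where 4.07% of all 13348 tested genes were, and it also passed the study's thresholds, as did 2.32% of all genes, 2.16% being higher. At an unadjusted p under 0.05 in edgeR, 1 was higher and 1 lower there, where 11.3% and 7.19% of all tested genes were. Each group of rats enters more than 1 of these comparisons, so they are not independent of each other.

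**Figure D1:**
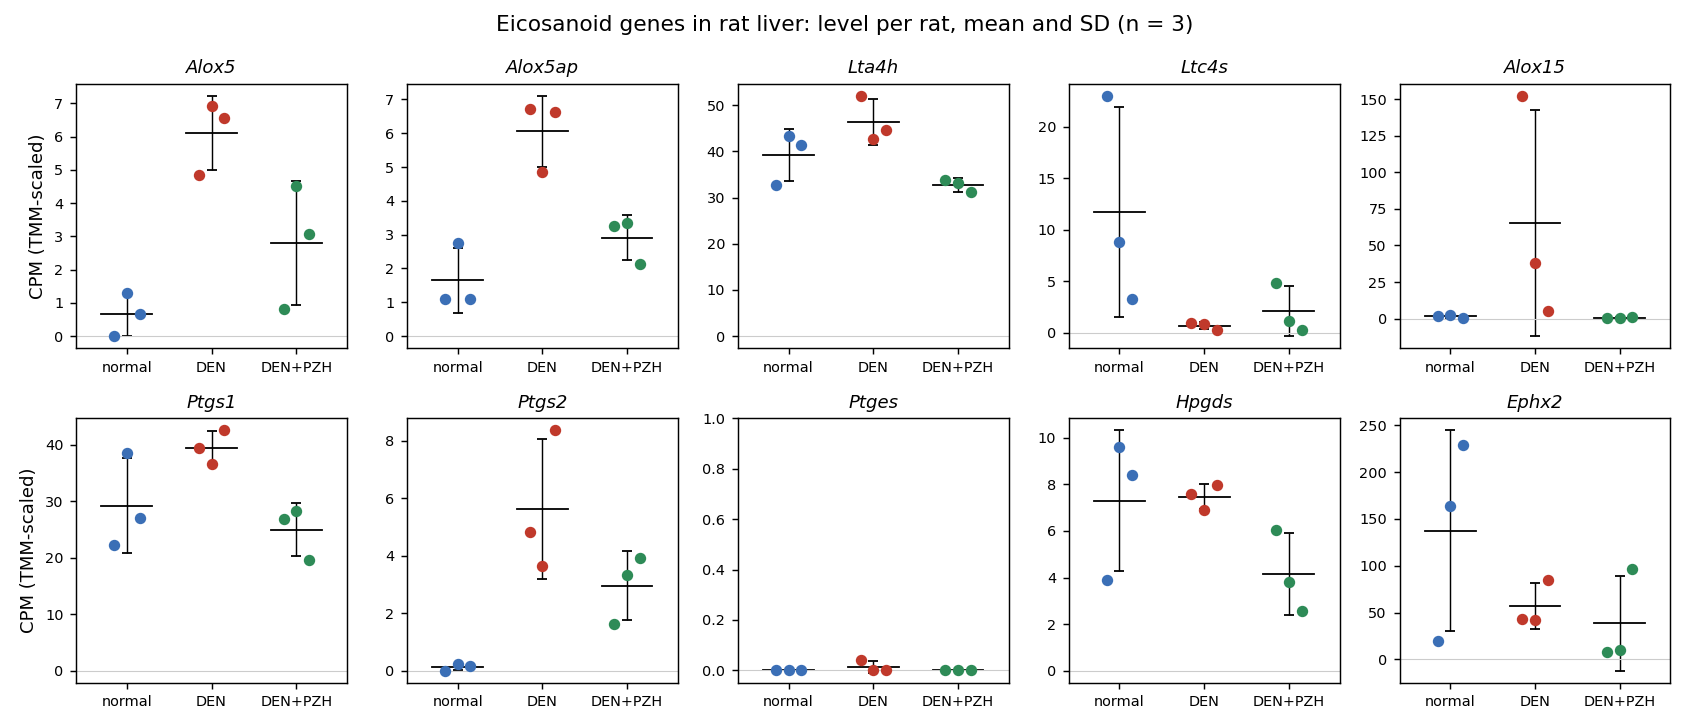
Level of each of the 10 genes in CPM (vertical axes, one scale per gene) in normal control, DEN model and DEN plus PZH rats, one point per rat, with the mean (line) and SD (bar) of 3 rats. Alox5, Alox5ap, Alox15 and Ptgs2 lie higher in every DEN model rat than in every normal control rat, Ltc4s lies lower, and Ephx2 splits within the normal control and PZH groups.

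**Figure D2:**
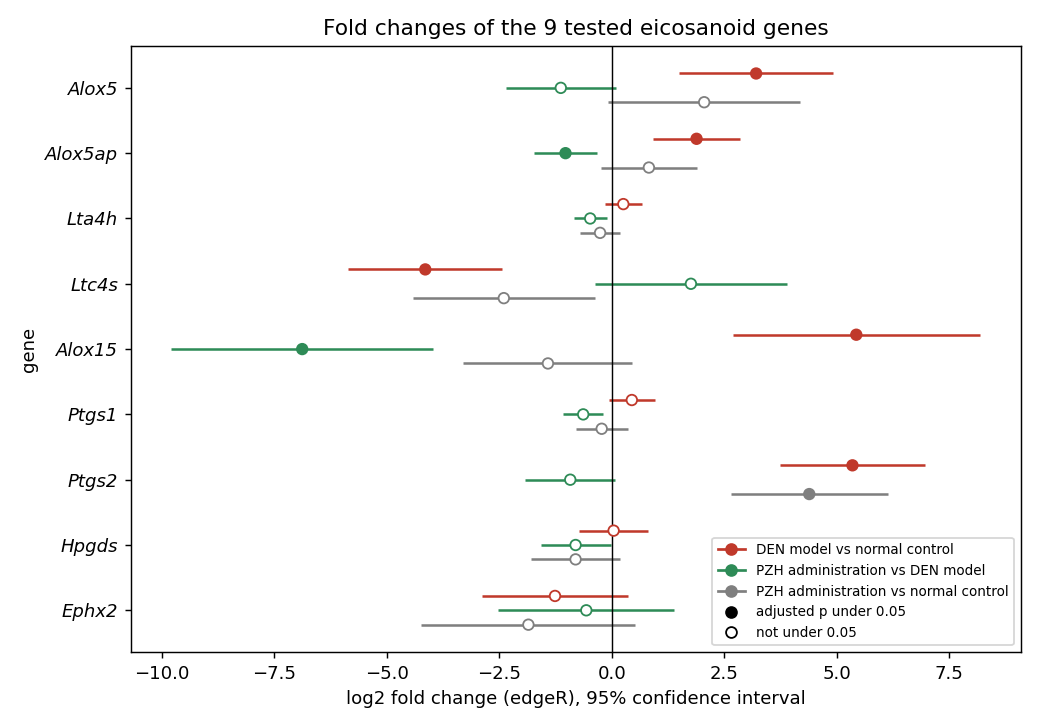
Fitted log2 fold change (horizontal axis) with its 95% confidence interval for the 9 tested genes in each of the 3 comparisons, with filled points where the adjusted p is under 0.05. Filled points are those of Alox5, Alox5ap, Ltc4s, Alox15 and Ptgs2 for DEN model against normal control, of Alox5ap and Alox15 for PZH administration against DEN model, and of Ptgs2 for PZH administration against normal control.

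Alox5 (ENSRNOG00000012972, chromosome 4, 148398892 to 148446303 in the coordinates of the authors' table, whose build is not given in the sources used here) opens the leukotriene branch. It was at 0 CPM in N1, 1.297 CPM in N12 and 0.67 CPM in N3, at 4.84 CPM in M13, 6.93 CPM in M17 and 6.58 CPM in M24, and at 0.81 CPM in G27, 4.52 CPM in G28 and 3.06 CPM in G42. Every DEN model rat lay above every other rat, and G27, the most deeply sequenced rat, lay among the normal control rats while G28 and G42 lay between the groups. The rise in DEN model livers was 3.21 on the log2 scale (standard error, SE, 0.75; adjusted p = 0.0086 in edgeR's test). Without N1, which had no Alox5 read, it was 2.61, and without N12 it was 4.20, with the call kept. The difference after PZH was -1.13 (95% confidence interval -2.36 to 0.10, adjusted p = 0.17 in edgeR's test), which passed with library totals at -1.76 (adjusted p = 0.029), and that between PZH administration and normal control was 2.06 (-0.08 to 4.19, adjusted p = 0.29 in the same test).

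Alox5ap (ENSRNOG00000000907, chromosome 12, 6854920 to 6879154), the membrane protein that hands arachidonic acid to Alox5, followed a similar order of groups with less spread. Its levels were 1.09, 2.75 and 1.09 CPM in N1, N12 and N3, 6.71, 4.85 and 6.62 CPM in M13, M17 and M24, and 3.24, 3.34 and 2.14 CPM in G27, G28 and G42. The DEN model rats stood apart from both other groups, which overlapped each other. The rise in DEN model livers was 1.89 on the log2 scale (SE 0.43, adjusted p = 0.0074 in edgeR's test), and 2.48 without N12. After PZH it fell by 1.03 on the log2 scale (SE 0.30), with an adjusted p of 0.048 in edgeR's test that lies close to the threshold. That call was lost without G27 (adjusted p = 0.062), G28 (adjusted p = 0.093), G42 (adjusted p = 0.11), M13 (adjusted p = 0.17) or M24 (adjusted p = 0.15) in edgeR, and the fold change then lay between -1.12 and -0.84. It was also lost without a filter on low counts (adjusted p = 0.060) and with all 9 rats in one fit (adjusted p = 0.080 in edgeR). It was kept without M17, where the adjusted p was 0.040 in edgeR's test.

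Downstream of these, Lta4h (ENSRNOG00000004494, chromosome 7, 34288365 to 34320235), the hydrolase that makes leukotriene B4, was a well-expressed gene with little spread. It was at 32.7 to 43.4 CPM in normal control, 42.6 to 52.1 CPM in DEN model and 31.1 to 33.8 CPM in PZH administration rats. DEN model and normal control rats overlapped, by N12 reaching above M17, with a log2 difference of 0.26 (95% confidence interval -0.15 to 0.66, adjusted p = 0.27 in edgeR's test). The PZH administration rats all lay below the DEN model rats, with a difference of -0.48 (-0.85 to -0.11) whose adjusted p of 0.070 in edgeR's test missed the threshold. With library totals both differences passed in edgeR, at 1.13 (adjusted p = 0.0017) and -1.16 (adjusted p = 0.0048).

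Ltc4s (ENSRNOG00000003244, chromosome 10, 35737664 to 35739625), the synthase of leukotriene C4, moved the opposite way to Alox5 and Alox5ap in DEN model livers. Its levels were 23.0 CPM in N1, 8.78 CPM in N12 and 3.27 CPM in N3, 0.89 CPM in M13, 0.79 CPM in M17 and 0.25 CPM in M24, and 4.82 CPM in G27, 1.11 CPM in G28 and 0.28 CPM in G42. The normal control rats differed among themselves by 7.04-fold and the PZH administration rats by 16.9-fold, yet every normal control rat exceeded every DEN model rat. Ltc4s fell by 4.15 on the log2 scale in DEN model livers (SE 0.75, adjusted p = 0.0028 in edgeR's test), which is a 17.7-fold lower level. Without N1, its highest rat, the value was -3.23 and the call stayed. The study's thresholds were no longer met without N1, N12, M13, M17 or M24, after each of which 0 members were past them in the lower direction. After PZH the difference was 1.76 (95% confidence interval -0.37 to 3.89, adjusted p = 0.21 in edgeR's test), with G27 and G28 above and G42 inside the range of the DEN model rats. Without G27 it was 0.15, so that rat carried nearly all of it. The difference between PZH administration and normal control was -2.40 (-4.42 to -0.38, adjusted p = 0.18), and without G27 it was -4.03 and passed (adjusted p = 0.023 in edgeR's test).

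Alox15 (ENSRNOG00000019183, chromosome 10, 56953691 to 56962161), the lipoxygenase that can oxidise lipids within membranes, had the largest fitted change of the 9 tested genes in both comparisons with DEN model rats, although without M13 that of Ptgs2 against normal control was larger, at 5.45 on the log2 scale. It was at 2.03 CPM in N1, 2.29 CPM in N12 and 0.17 CPM in N3, which are 26, 30 and 2 reads. In DEN model rats it was at 152.5 CPM in M13, 38.0 CPM in M17 and 5.37 CPM in M24, a 28.4-fold range within the group. In PZH administration rats it was at 0.34 CPM in G27, 0.35 CPM in G28 and 1.00 CPM in G42, which are 8, 5 and 14 reads. All DEN model rats lay above all others, although M24 at 5.37 CPM was nearer to the highest normal control rat than to M17, and the PZH administration and normal control rats overlapped. Alox15 rose by 5.44 on the log2 scale in DEN model livers (SE 1.21, adjusted p = 0.0068 in edgeR's test). Without M13 the rise was 3.86 (adjusted p = 0.014 in the same test), so that rat carries much of the size and not the call. In PZH administration against DEN model livers it fell by 6.88 (SE 1.27, with an adjusted p of 0.014 in edgeR's test), and by 5.29 without M13 (adjusted p = 0.044). The fall missed the study's thresholds without G27 or without G28, when 0 members were past them. Between PZH administration and normal control the difference was -1.42 (95% confidence interval -3.30 to 0.46, adjusted p = 0.41 in edgeR's test).

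The order of the DEN model rats for Alox15, M13 above M17 above M24, was not that of Alox5 or its partner Alox5ap, whose levels in the same rats differed by 1.43-fold and 1.38-fold. Of 13224 other genes tested in all comparisons, those with the highest Pearson correlation to Alox15 over the 9 rats on the log2(CPM + 1) scale were Klhl4 (0.98), Nrgn (0.96) and Lmcd1 (0.95). Klhl4 was at 5.65, 3.57 and 2.29 CPM in M13, M17 and M24 and at 1.14 to 1.53 CPM in all other rats. The same measure for Alox5 gave Rrm1, a subunit of ribonucleotide reductase (0.98), Slc7a4 (0.98) and Herc3 (0.98). These points share the 3 groups and the TMM scaling, and the correlations describe likeness over these rats and were not tested.

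Ptgs2 (ENSRNOG00000002525, chromosome 13, 67351087 to 67359335), the inducible cyclooxygenase, was nearly unread in normal livers and present in every rat that had received DEN. Normal control rats had 0, 3 and 2 reads in N1, N12 and N3, which are 0, 0.23 and 0.17 CPM. DEN model rats were at 4.84 CPM in M13, 3.67 CPM in M17 and 8.37 CPM in M24, and PZH administration rats at 1.62 CPM in G27, 3.34 CPM in G28 and 3.92 CPM in G42. Both DEN-treated groups thus lay wholly above the normal control rats and overlapped each other, G42 being above M17. Ptgs2 rose by 5.35 on the log2 scale in DEN model livers (SE 0.71, adjusted p = 0.00068 in edgeR's test), and by 4.77 without N1. The fold rests on 5 reads in all normal control rats together. In PZH administration livers it was still higher than in normal control livers, by 4.39 (SE 0.77, adjusted p = 0.014 in edgeR's test), a call that was lost without G28 (adjusted p = 0.062) or N1 (adjusted p = 0.051, fold change 3.81), and without N12 the difference was 5.02. Without G28, G42 or N3 the study's thresholds were no longer met in that comparison. The difference between PZH administration and DEN model was -0.92 (95% confidence interval -1.92 to 0.08, adjusted p = 0.17 in edgeR's test), and passed with library totals at -1.62 (adjusted p = 0.028).

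Ptgs1 (ENSRNOG00000007415, chromosome 3, 15560712 to 15582344), the constitutive cyclooxygenase, was well read in all 9 rats. Its levels were 22.3, 38.5 and 27.02 CPM in N1, N12 and N3, 39.5, 36.6 and 42.6 CPM in M13, M17 and M24, and 26.97, 28.4 and 19.7 CPM in G27, G28 and G42. DEN model and normal control rats overlapped through N12, and the DEN model rats all exceeded the PZH administration rats. The log2 difference in DEN model livers was 0.45 (95% confidence interval -0.06 to 0.96, adjusted p = 0.13 in edgeR's test), and without N12 it was 0.69 and passed (adjusted p = 0.031). After PZH it was -0.63 (-1.08 to -0.19), with an adjusted p of 0.053 in edgeR's test that just missed the threshold and an adjusted p of 0.043 in DESeq2. With library totals both differences passed in edgeR, at 1.32 (adjusted p = 0.0019) and -1.32 (adjusted p = 0.0043). By length-scaled level, Ptgs1 at 8.11 FPKM exceeded Ptgs2 at 0.0233 FPKM in normal control livers, at 20.2 against 1.89 FPKM in DEN model livers and at 8.10 against 0.624 FPKM in PZH administration livers. The 3 rats of each group did not overlap between these genes.

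The terminal prostaglandin synthases did not pass the test in any comparison. Ptges (ENSRNOG00000006320, chromosome 3, 9727408 to 9738752), the inducible prostaglandin E synthase, had 1 read in M13 and 0 in each of the other 8 rats, so its level was below the 3-read limit of 0.125 to 0.252 CPM in every library. Hpgds (ENSRNOG00000006583, chromosome 4, 95946025 to 95970666), the haematopoietic prostaglandin D synthase, was at 3.90, 9.62 and 8.39 CPM in N1, N12 and N3, 7.56, 6.88 and 7.95 CPM in M13, M17 and M24, and 6.06, 3.83 and 2.56 CPM in G27, G28 and G42. DEN model rats lay within the range of the normal control rats, with a log2 difference of 0.04 (95% confidence interval -0.73 to 0.81, adjusted p = 0.93 in edgeR's test) that became -0.28 without N1 and, with library totals, 0.93 with a call (adjusted p = 0.048). All PZH administration rats lay below all DEN model rats, with a difference of -0.80 (-1.58 to -0.03, adjusted p = 0.13), and without G27 it was -1.20 and passed (adjusted p = 0.039 in edgeR's test), as it did with library totals at -1.51 (adjusted p = 0.011).

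Ephx2 (ENSRNOG00000017286, chromosome 15, 42757235 to 42794279), the soluble epoxide hydrolase, differed by up to 12.3-fold between rats of one group. It was at 19.1 CPM in N1 against 163.5 CPM in N12 and 229.1 CPM in N3, and at 7.89 CPM in G27 and 10.4 CPM in G28 against 97.0 CPM in G42. The DEN model rats were at 43.6 CPM in M13, 42.4 CPM in M17 and 85.3 CPM in M24. The range within a group was therefore 12.0-fold in normal control, 12.3-fold in PZH administration and 2.01-fold in DEN model rats, and N1, G27 and G28 were below every other rat. These differences rest on 150 to 2730 reads per rat. No comparison passed edgeR's test, with log2 differences of -1.26 (95% confidence interval -2.90 to 0.37, adjusted p = 0.18) for DEN model against normal control, -0.57 (-2.52 to 1.39, adjusted p = 0.67) for PZH administration against DEN model and -1.85 (-4.23 to 0.53, adjusted p = 0.40) for PZH administration against normal control. Single rats decided the first pair of these calls, since without N1 Ephx2 was lower in DEN model livers by a log2 value of -1.79 (adjusted p = 0.010 in edgeR's test) and without G42 it was lower after PZH by -2.60 (adjusted p = 0.030). Without N3 the first difference was -0.68, and the second was -0.07 without G27, -0.11 without G28 and -0.15 without M24. Between PZH administration and normal control no omission led to a call in edgeR, and the difference ranged from -1.23 without N3 to -3.92 without G42. The hepatocyte marker sum was 156703 CPM in N1, 160164 CPM in G27 and 127804 CPM in G28, against 143024 CPM in N12, 160145 CPM in N3 and 121545 CPM in G42, and its part in the Ephx2 levels was not tested. The genes most like Ephx2 over the 9 rats reached lower correlations than those like Alox15, at 0.91 for AABR07012054.1, 0.90 for Dusp22 and 0.89 for Tmem230. Dusp22 ranged from 9.26 to 17.9 CPM over the 9 rats, so none of these had a range like that of Ephx2, 7.89 to 229.1 CPM.

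Between genes, levels were compared by the authors' FPKM, which are scaled for length and not with TMM, and only within a group. In normal control livers the order from high to low was Ephx2 (49.1 FPKM), Ltc4s (18.3), Lta4h (15.02), Ptgs1 (8.11), Hpgds (4.81), Alox5ap (1.301), Alox15 (0.537), Alox5 (0.162), Ptgs2 (0.0233) and Ptges (listed at 0). Neighbours in that order whose rats did not overlap were Lta4h and Ptgs1, and Hpgds and Alox5ap, and all other neighbours overlapped. In DEN model livers Alox15 (42.4 FPKM) had the highest mean through M13, with 102.5 FPKM in M13, 20.8 FPKM in M17 and 3.82 FPKM in M24, and its rats overlapped those of Ephx2 (39.3). Those of Ephx2 overlapped those of Lta4h (32.9). Ltc4s (1.77) had the lowest mean but Ptges, with overlap with Ptgs2 (1.89). In PZH administration livers the mean of Ephx2 (16.9) was above that of Lta4h (14.7) through G42 alone, at 42.95 FPKM, while G27 and G28 at 3.21 and 4.56 FPKM lay below every Lta4h and every Ptgs1 value. Alox15 (0.235) was the lowest gene but Ptges, without overlap with Ptges and with overlap with Ptgs2 (0.624).

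Markers of the cells known for these enzymes moved between the groups, and their part in the results was not tested. The 6 neutrophil markers summed to 1.91 to 2.26 CPM in normal control, 15.5 to 31.7 CPM in DEN model and 4.84 to 5.46 CPM in PZH administration rats. Of these, 4 were tested and all 4 (S100a8, S100a9, Csf3r and Cxcr2) rose in DEN model livers, as did 25.3% of all tested genes. The same 4 fell after PZH, as did 10.3% of all tested genes. S100a8 and Cxcr2 had 6 and 5 reads in all normal control rats together, at or under 3 reads in each. Elane and Mpo, which define the granules of neutrophils, were at or under 3 reads in each normal control and each PZH administration rat. The macrophage markers split, with Clec4f, Marco and Vsig4, genes of resident macrophages, lower in DEN model livers and Cd68, Csf1r and Adgre1 not past the test. Their sum was 455 to 830 CPM in normal control, 379 to 454 CPM in DEN model and 214 to 487 CPM in PZH administration rats, and after PZH Cd68, Csf1r and Adgre1 fell. Of 7 mast cell markers, 6 were tested in DEN model against normal control, and Cpa3, Ms4a2, Fcer1a and Cma1 rose while Hdc fell. The mast cell sum was 24.2 to 29.7 CPM in normal control, 45.2 to 56.4 CPM in DEN model and 26.03 to 65.4 CPM in PZH administration rats, and none of the 6 tested passed after PZH in edgeR. Most of the normal control sum came from Kit, which did not pass, and Hdc, with means of 12.2 and 12.9 CPM. Cpa3, Ms4a2, Fcer1a and Cma1 had normal control means of 0.0839 to 0.855 CPM and log2 fold changes of 4.26 to 4.61 in DEN model livers, so the sum moved less than they did. The 5 eosinophil markers with a row summed to 0.458 to 0.504 CPM in normal control, 1.91 to 2.21 CPM in DEN model and 0.418 to 1.42 CPM in PZH administration rats. None of them had enough reads to be tested in DEN model against normal control. Il5ra, Prg2 and Epx were at or under 3 reads in each normal control rat, Epx also in each PZH administration rat, and Prg3 in every library. Alox15 went from 152.5 to 5.37 CPM across the DEN model rats M13, M17 and M24. In the same order the eosinophil sum was 1.91, 2.18 and 2.21 CPM and the macrophage sum 454, 411 and 379 CPM. The mast cell sum was 45.2, 55.2 and 56.4 CPM and the neutrophil sum 31.7, 15.5 and 25.2 CPM. The sum of the platelet markers was 12.0, 9.36 and 7.08 CPM. No link between these sums and Alox15 was tested.

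The remaining marker lists differed in how far they moved. Of all tested genes 25.3% rose and 20.5% fell in DEN model livers, and 8.72% rose and 10.3% fell after PZH. Of 5 stellate cell and myofibroblast markers 4 rose in DEN model livers and 3 fell after PZH, with sums of 47.8 to 67.0, 338 to 1287 and 155 to 209 CPM in that order of groups, normal control first and PZH administration last. All 4 ductular markers rose in DEN model livers and were lower in PZH administration than in DEN model livers. Their sums were 11.8 to 19.6, 156 to 598 and 71.3 to 79.7 CPM. Of 6 hepatocyte markers 2 (Alb and Ttr) fell in DEN model livers and 1 (Ttr) rose after PZH. Among 5 platelet markers, of which 2 were tested, Pf4 rose in DEN model livers and fell after PZH, and the sums overlapped at 6.55 to 15.6, 7.08 to 12.0 and 4.06 to 12.5 CPM. Of the lymphocyte markers Cd3e rose in DEN model livers, where the sums were 1.56 to 2.59, 3.42 to 20.1 and 0.712 to 2.78 CPM. The sinusoidal endothelium list had 3 tested genes, 2 lower in DEN model livers (Lyve1 and Clec4g) and 1 higher after PZH (Clec4g), with sums of 169 to 199.9, 74.8 to 151 and 130 to 195 CPM.

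**Figure D3:**
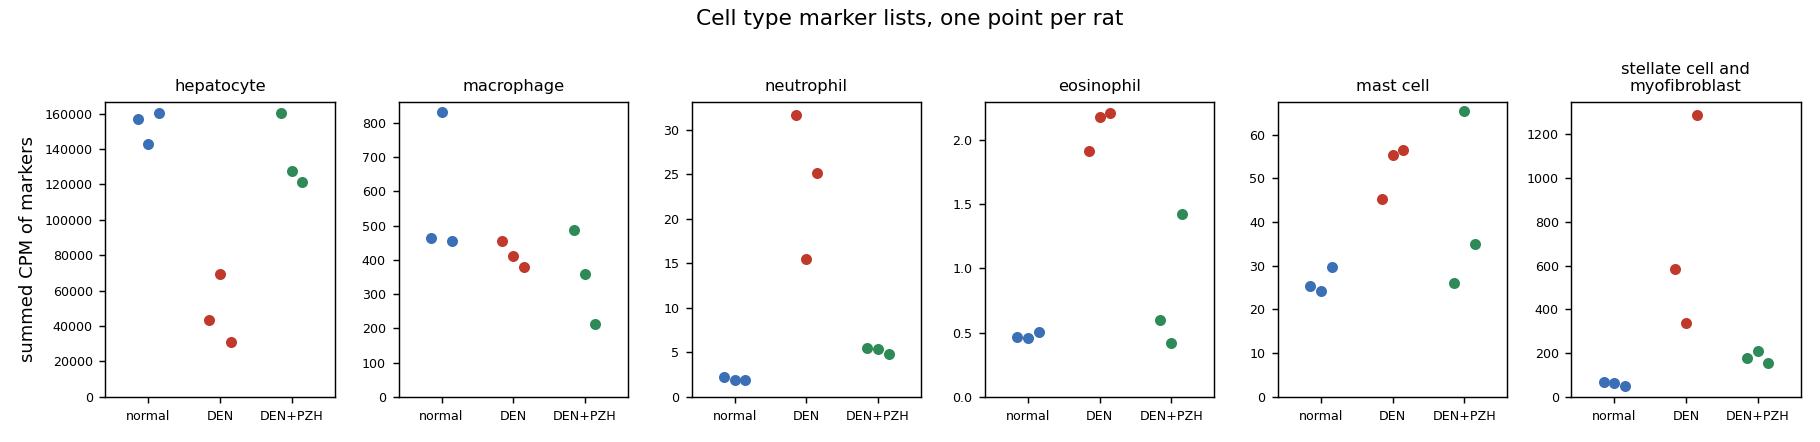
Summed CPM (vertical axes, each from 0) of 6 marker lists, one point per rat, in normal control, DEN model and DEN plus PZH rats. Neutrophil, eosinophil and stellate cell sums lie higher in every DEN model rat than in all other rats. The eosinophil sum rests on few reads, and none of its markers could be tested in DEN model against normal control. The hepatocyte sum lies lower, and the macrophage sum does not rise in DEN model rats.

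The other genes of the arachidonic acid pathway, a list of 64 in 8 roles, were read beside these enzymes. Of the 64, 59 had a row and 47 had enough reads to be tested in DEN model against normal control, where 18 rose and 18 fell (76.6%, against 45.8% of all tested genes). After PZH 13 of 47 rose and 6 fell (40.4%, against 19.1%), and between PZH administration and normal control 8 of 42 were higher and 1 lower (21.4%, against 5.21%). The median log2 fold change was 0.06, 0.14 and -0.08, beside 0.03, 0.01 and -0.02 over all tested genes. The counts after PZH depended on single rats. They were 3 higher and 0 lower without M13, and 8 higher and 1 lower without M24. Calls over all tested genes fell likewise, from 19.1% to 1.87% without M13 and to 5.004% without M24. Of the list, 2 were lower without G28 or without G42. Between PZH administration and normal control 4 were higher without G28, 5 without G42, 3 without N1 and 5 without N12, and 3 were lower without G27, where without each of the other 5 rats 0 were. Library totals turned the direction of 1 called gene in each comparison with DEN model rats, Lpcat3 against normal control and Ptgr2 after PZH.

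**Figure D4:**
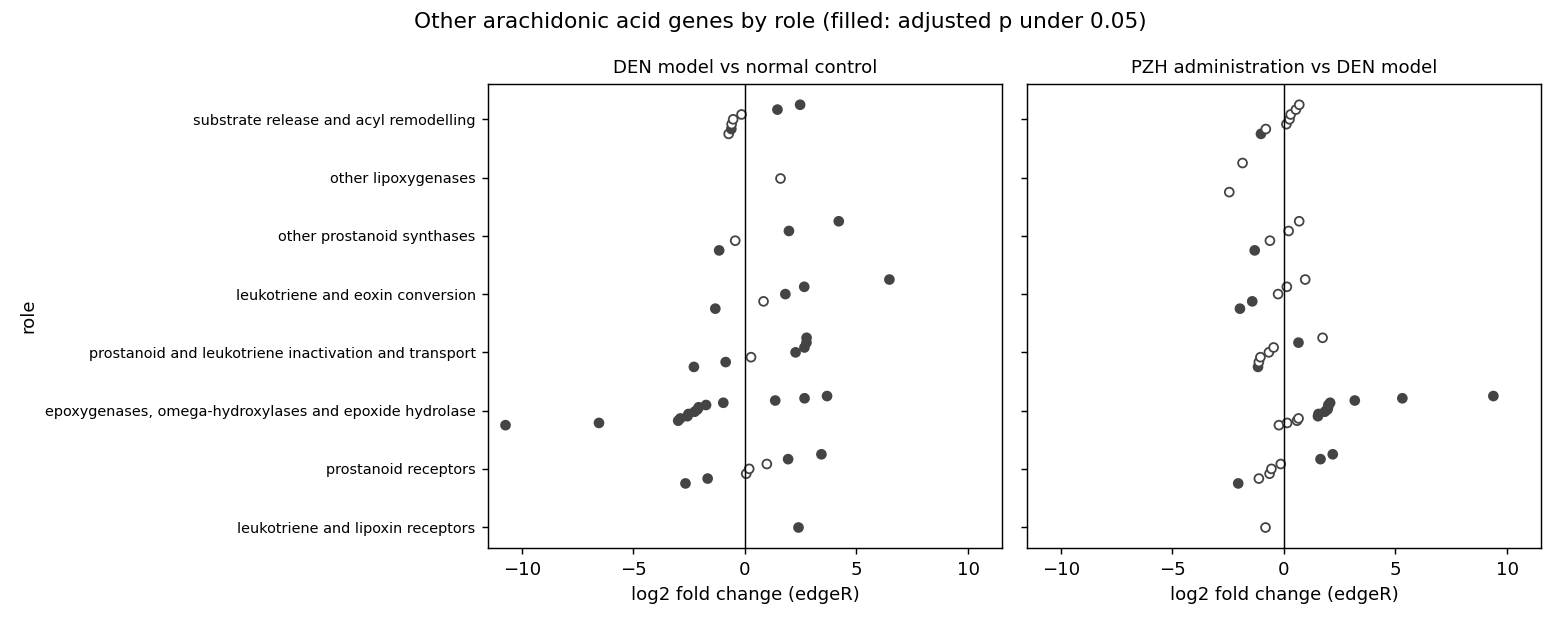
Fitted log2 fold change (horizontal axis, same range in both panels) of the tested genes of the other arachidonic acid pathway roles for DEN model against normal control (left) and PZH administration against DEN model (right), one point per gene, filled where the adjusted p is under 0.05, with Aloxe3 left out on the left because its normal control rats had 0 reads. The epoxygenase and omega-hydroxylase row lies mostly left of 0 on the left panel and mostly right of 0 on the right panel.

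Upstream of the oxygenases, Pla2g4a, the cytosolic phospholipase that releases arachidonic acid, rose from 7.81 ± 1.96 CPM in normal control to 21.3 ± 3.07 CPM in DEN model livers and fell to 10.2 ± 2.52 CPM after PZH (SD, n = 3 each). Its log2 fold changes were 1.46 (adjusted p = 0.0021 in edgeR's test) and -1.03 (adjusted p = 0.026). The secreted phospholipase Pla2g2a also rose in DEN model livers, by 2.47 (adjusted p = 0.029 in edgeR's test). Its groups just overlapped, at 0.504 to 2.7475 CPM in normal control and 2.7474 to 17.4 CPM in DEN model rats. Lpcat3, which puts arachidonic acid back into phospholipids, was lower by a log2 value of -0.61 (adjusted p = 0.012), with TMM scaling and not with library totals. Of the other lipoxygenases, Aloxe3 had 0 reads in normal control rats and 0.545 to 1.44 CPM in DEN model rats, at least 3.83-fold higher against 3 reads per library (adjusted p = 0.0054 in edgeR's test). Alox12 did not pass in either comparison with DEN model rats, and Alox15b, Alox12b and Alox12e were too low to be tested.

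Among the other prostanoid synthases, Tbxas1, the thromboxane synthase, rose from 3.52 ± 0.134 CPM to 13.6 ± 3.50 CPM in DEN model livers and fell to 5.38 ± 1.52 CPM after PZH (SD, n = 3 each), with log2 fold changes of 1.97 (adjusted p = 0.00074 in edgeR's test) and -1.31 (adjusted p = 0.025). Ptgds, the other prostaglandin D synthase, rose by 4.21 (adjusted p = 0.0054 in edgeR's test) from 5 reads in all normal control rats, and Ptges2 fell by 1.15 on the log2 scale (adjusted p = 0.0029). Of the enzymes that trim leukotriene C4 to its smaller forms, Ggt1, Dpep1 and Dpep2 were tested and rose in DEN model livers, and Ggt5 was not analysed here. Ggt1, a gamma-glutamyltransferase, went from 0.629 ± 0.630 CPM to 54.7 ± 18.7 CPM and was at 20.2 ± 5.94 CPM after PZH (SD, n = 3 each), with log2 fold changes of 6.48 (adjusted p = 0.00015 in edgeR's test) and -1.42 (adjusted p = 0.022). The dipeptidases Dpep1 and Dpep2 rose by 2.66 (adjusted p = 0.00031) and 1.81 (adjusted p = 0.014 in edgeR's test), and Dpep2 fell after PZH by 1.97 on the log2 scale (adjusted p = 0.035). Dpep1 stayed higher in PZH administration than in normal control livers, by 2.76 (adjusted p = 0.0039 in edgeR's test), as did Ggt1, by 5.01 (adjusted p = 0.0044). Mgst3 fell by 1.33 on the log2 scale in DEN model livers (adjusted p = 0.017 in edgeR's test).

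Of 7 tested genes of inactivation and transport, 4 rose and 2 fell in DEN model livers, beside 25.3% higher and 20.5% lower of all tested genes. Ptgr1, a reductase that inactivates prostaglandins and leukotriene B4, rose by 2.76 (adjusted p = 0.00038 in edgeR's test), and Abcc1, an exporter of leukotriene C4, rose by 2.76 (adjusted p = 0.00014). Slco2a1, the prostaglandin uptake transporter, fell from 493 ± 75.8 CPM to 99.7 ± 92.8 CPM (SD, n = 3 each), which is -2.29 on the log2 scale (adjusted p = 0.013 in edgeR's test), and Ptgr2 fell by 0.86 on the log2 scale (adjusted p = 0.0045). After PZH, Abcc1 fell by 1.16 (adjusted p = 0.017) and Ptgr2 rose by 0.65 (adjusted p = 0.032 in edgeR's test), the latter with TMM scaling and not with library totals. Against normal control, Ptgr1 and Abcc4, an exporter of prostaglandins, were still higher after PZH, by 2.05 (adjusted p = 0.019) and 1.58 (adjusted p = 0.027 in edgeR's test).

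The cytochrome P450 role held 5 tested genes of the Cyp2 family, whose epoxygenases make the epoxides that Ephx2 hydrolyses, 8 of the Cyp4 family, whose omega-hydroxylases make hydroxy acids instead, and Ephx1, which is not a P450. In DEN model livers 4 of the 5 Cyp2 genes and 7 of the 8 Cyp4 genes fell, 1 of each family rose, and Ephx1 rose. These 11 lower and 3 higher of 14 stand beside 20.5% and 25.3% of all tested genes. After PZH 3 of the 5 Cyp2 and 7 of the 8 Cyp4 genes rose and 0 of the 14 fell by edgeR, beside 8.72% higher and 10.3% lower of all tested genes, with 4 of the 14 not past the test. Over the 14 genes the median of the log2 fold changes was -2.19 in the first and 1.89 in the second of these comparisons. Cyp2c11, a male-type epoxygenase, fell by 10.73 on the log2 scale in DEN model livers (adjusted p = 1.8e-05 in edgeR's test) and rose by 9.39 after PZH (adjusted p = 0.00053). Cyp4a2, an omega-hydroxylase, was at 3441 ± 3336 CPM in normal control, 36.0 ± 4.74 CPM in DEN model and 1399 ± 688 CPM in PZH administration livers (SD, n = 3 each), with log2 fold changes of -6.54 (adjusted p = 0.00063 in edgeR's test) and 5.31 (adjusted p = 0.0029). Cyp2c24 and Cyp4f5 rose in DEN model livers, by 3.68 (adjusted p = 0.00082) and 2.67 (adjusted p = 0.0014 in edgeR's test), and were also higher after PZH than in normal control livers, by 4.22 (adjusted p = 0.0067) and 2.42 (adjusted p = 0.017). Cyp4a1, another omega-hydroxylase, was the 1 gene of the list lower in PZH administration than in normal control livers, at -1.20 (adjusted p = 0.039 in edgeR's test). That call was kept without G27 (adjusted p = 0.030) and lost without any other rat, with adjusted p between 0.079 and 0.12 in edgeR. Ephx1, the microsomal epoxide hydrolase, was at 635 ± 81.1, 1607 ± 703 and 1743 ± 441 CPM in normal control, DEN model and then PZH administration livers (SD, n = 3 each), and rose by 1.36 in DEN model livers (adjusted p = 0.015 in edgeR's test), unlike Ephx2, which did not pass. Members of the Cyp2c, Cyp4a and Cyp4f families have close copies that may share reads, so their single values are uncertain.

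Receptors for these lipids changed in both directions. Of all tested genes 25.3% rose and 20.5% fell in DEN model livers, and 8.72% rose and 10.3% fell after PZH. Of 7 tested prostanoid receptors, Ptger4 and Ptger2, the prostaglandin E2 receptors that raise cyclic AMP, rose in DEN model livers by 3.43 (adjusted p = 0.00063) and 1.94 (adjusted p = 0.014 in edgeR's test). Ptger3, a prostaglandin E2 receptor that lowers it, and Ptgfr, the prostaglandin F receptor, fell by 2.66 (adjusted p = 0.00074) and 1.67 (adjusted p = 0.013 in edgeR's test) on the log2 scale. After PZH, Ptger3 rose from 9.17 ± 4.59 CPM to 41.1 ± 13.6 CPM, beside 58.8 ± 14.9 CPM in normal control livers (SD, n = 3 each), which is 2.19 on the log2 scale (adjusted p = 0.013 in edgeR's test). Ptgfr rose by 1.64 (adjusted p = 0.041) and Ptger4 fell by 2.05 on the log2 scale (adjusted p = 0.041 in edgeR's test). Of 6 leukotriene and lipoxin receptors, Cysltr1, which binds the cysteinyl leukotrienes, was the one with enough reads, and rose by 2.39 in DEN model livers (adjusted p = 0.0021 in edgeR's test) while its difference after PZH was -0.86 (adjusted p = 0.18). The other 5, the leukotriene B4 receptors Ltb4r and Ltb4r2 among them, were too low to be tested.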

How the data were processed

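Liver RNA of 9 rats was sequenced by the authors, 3 per group. The deposited counts are whole reads per gene and rat that the authors did not normalize, and the deposited FPKM values are the authors' scaling for length and library size. The submitters' processing notes list fastp, HISAT2 2.1.0, StringTie 1.3.3b and edgeR 3.30.3, without roles. The genome build is not given in the sources used here. Columns of the authors' own comparisons (fold changes with their test results) and group means were not used. Counts were filtered with filterByExpr, scaled with TMM and tested across all genes with glmQLFit and glmQLFTest in edgeR 4.0.16 (R 4.3.3), without covariates. Standard errors come from the fold change and its F value. Exact permutation of 3 against 3 rats cannot give p below 0.1. The method was first run on simulated data with the same spread in all genes and changes of 3 log2 units. It recovered 199 to 200 of 200 changed genes per comparison and called 6 to 8 unchanged ones. Genes with few reads were left out, so the simulation does not cover members with few reads or a wide spread. Alternatives were DESeq2 1.42.0, library totals, other filters, all 9 rats in one fit, a size limit of 1 log2 unit, and omission of each rat in turn. Depth was 14922973 to 27161496 reads. All 10 members were named, with up to 2 genes of largest and 2 of smallest log2 fold change per role and comparison among those called in the pathway list, and the 3 genes most correlated with Alox15, Alox5 and Ephx2. Marker genes were named only beside their lists. The members and lists were chosen with earlier results of these data known.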

Additional observations from a re-analysis of the deposited data

How the results depend on the processing

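Of the log2 fold changes of the 9 tested members, 89 values under the alternatives kept their direction and side of the threshold for DEN model against normal control, 80 for PZH administration against DEN model and 91 for PZH administration against normal control, while 5, 9 and 1 newly passed and 0, 7 and 2 no longer passed. Directions turned for Hpgds without N1 (-0.28, and 0.29 without N12, DEN model against normal control) and for Ptgs1 without N12 (0.0020, and -0.41 without N1, PZH administration against normal control). The cause of these changes between settings was not tested.

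For DEN model against normal control, where 4 members were called higher, 1 lower, and 1 in each direction passed the study's thresholds, library totals gave 7 higher, where 57.005% of all tested genes were then higher, and 4 higher and 0 lower at the thresholds, which 19.5% of all tested genes then met. At the thresholds DESeq2 gave 3 higher, no filter 2 higher, and one fit of all 9 rats 2 higher and 0 lower. With 10 or more counts required in each rat, fewer members were tested and 1 was called higher and 0 lower, with 0 in either direction at the thresholds, and 9 of the pathway list were called higher. For PZH administration against DEN model, where 2 members were lower, library totals gave 7 lower and 17 of the pathway list lower, where 39.9% of all tested genes were then lower. No filter and one fit of all 9 rats gave 1 lower each, and under that stricter filter 0 were lower at the thresholds. For PZH administration against normal control, the stricter filter left 0 members higher by either rule and 0 of the pathway list lower. Of the pathway list, DESeq2, no filter and one fit of all 9 rats gave 2 lower each and library totals 0.

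Leaving out 1 rat gave 4 to 5 members higher and 1 to 2 lower for DEN model against normal control, and 1 to 2 higher and 0 to 1 lower at the thresholds. For PZH administration against DEN model it gave 1 to 2 lower, 0 to 1 lower at the thresholds, and 3 to 15 higher and 0 to 8 lower of the pathway list. For PZH administration against normal control it gave 0 to 1 member higher and 0 to 1 lower, 0 to 1 higher at the thresholds, and 3 to 8 higher and 0 to 3 lower of the pathway list.

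No paired analysis was possible because the groups share no replicate numbers. Depth limits Ptges, at most 1 read per rat, and the normal control level of Ptgs2.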
